A study of Homo sapiens with 6 samples.

Results

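The CDK inhibitors and the G1 cyclin-dependent kinases were examined in the RNA-seq data as a set of 10 genes, 7 inhibitors and 3 kinases. Each was taken as the row whose gene column holds its exact symbol, and each had 1 row with no other symbol in it, so the set is 10 of the 26822 gene symbols in the deposited table. MCF10A cells, a line of breast epithelial cells that divides without limit in culture, were transfected for 72 hours with 30 nM of non-targeting siRNA (siNT) or of siRNA against PAX9 (siPAX9), a paired box transcription factor. Both groups had 3 samples, grew in the same medium and were sequenced as poly(A)+ RNA. The study asked how loss of PAX9 changes mRNA levels in these cells. Everything below comes from 1 line and from 1 siRNA reagent for each target, and no other siRNA or line was compared.

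The table gives 1 value per group and gene, in FPKM, which scales reads by transcript length and by the size of the library and so allows levels of different genes to be set side by side. Each value printed here is the authors' value for a group, with no SD, and the table holds neither counts nor depth. No test between the groups could be made from these values, and the authors' own test columns were not used, so no difference between siNT and siPAX9 is set against the spread between samples here. A change is given as the log2 of siPAX9 FPKM over siNT FPKM, and a gene is counted as higher or lower where it differed by at least 2-fold. In bulk RNA, fewer cells of one kind and less RNA per cell cannot be told apart. PAX9 itself was at 2.80 FPKM in siNT and 0.325 FPKM in siPAX9, a log2 change of -3.10.

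Cells pass from G1 into S phase when cyclin D with CDK4 or CDK6, and then cyclin E with CDK2, phosphorylate the retinoblastoma protein and release the E2F factors that switch on the genes of DNA replication. The CIP/KIP inhibitors (CDKN1A, CDKN1B and CDKN1C, encoding p21, p27 and p57) bind cyclin-CDK complexes and block CDK2 in particular. The INK4 inhibitors (CDKN2A, CDKN2B, CDKN2C and CDKN2D, encoding p16, p15, p18 and p19) bind CDK4 and CDK6 alone and keep cyclin D away. In epithelial cells these genes are known for their part in growth arrest, CDKN1A in the response to damage and stress and CDKN2B in the response to TGF-beta.

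After PAX9 depletion, CDKN1A, CDKN1C and CDKN2D were higher by at least 2-fold, CDKN2C and CDK6 were lower by at least 2-fold, and CDKN1B, CDK2 and CDK4 differed by less. CDKN2A and CDKN2B were listed at 0 in both groups. Of the 10 genes, 8 reached 1 FPKM in the higher group and could be compared. Among the 13492 named genes compared in this way, 7.26% were at least 2-fold higher and 6.89% at least 2-fold lower in siPAX9, against 3 and 2 of the 8 members compared. The members past 2-fold were split between both directions. The median log2 change of the 8 was -0.34, with 3 higher and 5 lower in sign, beside a median of -0.07 for all genes compared. At a 4-fold limit, 1 member (CDKN1A) was higher and 0 were lower, where 2.67% and 1.37% of all genes compared passed. At 1.5-fold, 3 were higher and 3 lower, CDK4 being the third, where 14.3% and 16.8% passed.

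**Figure D1:**
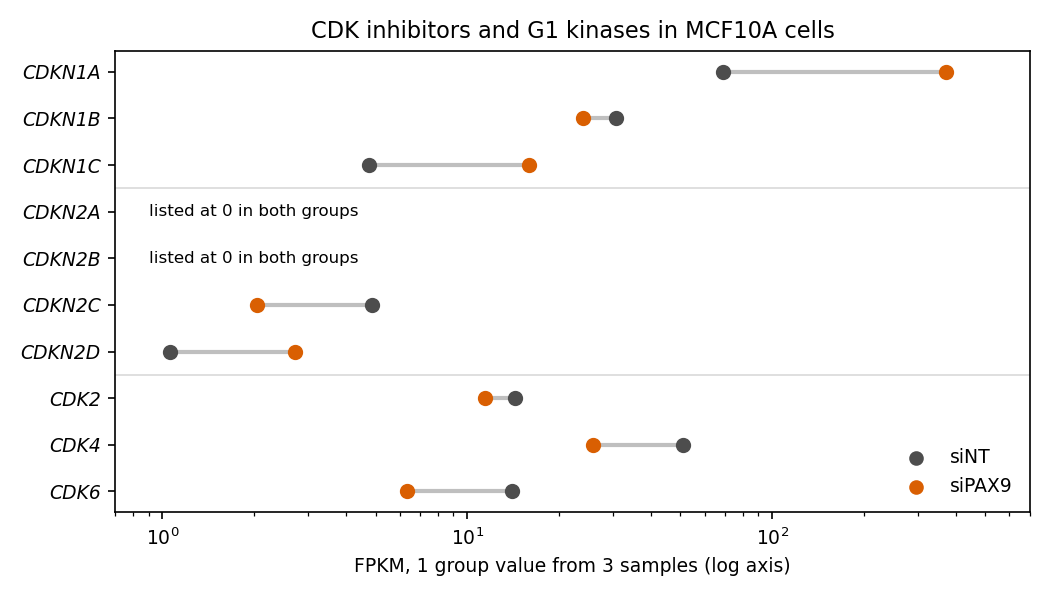
FPKM of each gene in siNT (grey) and siPAX9 (orange) on a log axis, 1 value per group from 3 samples, with no error bar because the table gives none. CDKN1A was at 69.0 and 373 FPKM, while CDK4 and CDK6 were lower in siPAX9.

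CDKN1A had the largest change of the set. It was at 69.0 FPKM in siNT and at 373 FPKM in siPAX9, which is 5.41-fold higher, a log2 change of 2.44. It was already the most abundant of the 10 mRNAs in control cells, above 91.2% of all genes compared, and in siPAX9 it stood above 98.8% of them. Among all genes compared, 251 (1.86%) had a larger log2 change upward. The difference of 304 FPKM in CDKN1A was larger than the FPKM of all the other members added together in either group. CDKN1A lies on chromosome 6 from 36644237 to 36655116 on the plus strand (hg19), and its locus overlaps the annotated antisense transcript DINOL over 951 bases. Whether the counting used the strand is not given in the sources used here, so reads from the 2 strands there cannot be told apart.

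The promoter of CDKN1A is shown because this gene leads the set. The 250 bases before its start (RefSeq, GRCh38.p14, chr6:36678464-36678713, plus strand) are printed with every GC box (GGGCGG on either strand, the site of Sp1-type factors) in capitals.
CDKN1A promoter: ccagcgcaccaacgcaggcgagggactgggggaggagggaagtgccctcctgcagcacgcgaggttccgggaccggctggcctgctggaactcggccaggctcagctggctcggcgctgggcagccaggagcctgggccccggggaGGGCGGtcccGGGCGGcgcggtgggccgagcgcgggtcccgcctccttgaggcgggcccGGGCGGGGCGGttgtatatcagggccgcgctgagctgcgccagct
The 4 GC boxes lie between positions -104 and -35 from the start, and the last pair overlaps by 1 base. GC content was 76.4%, against a median of 58.0% over 35116 RefSeq promoters, of which 42.6% hold a GC box. Neither a TATA box written TATAAA (10.7% of promoters) nor an E-box CACGTG (6.34%) was found in this window, and neither was an E2F site written TTTCGCG or TTTGGCG (2.65%). GCGTGAC, a core of PAX9 binding sequences (2.20% of promoters), was not found either. All motifs were searched on both strands.

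The other members of the CIP/KIP family went separate ways. CDKN1C, an imprinted gene whose product p57 restrains growth in development, was at 4.76 FPKM in siNT and 16.0 FPKM in siPAX9, 3.35-fold higher, a log2 change of 1.74. It moved from above 27.3% of genes to above 64.1% of them, and 438 genes (3.25%) were above it in log2 change. CDKN1B, whose product p27 is controlled mainly through its breakdown, was at 30.7 FPKM in siNT and 23.9 FPKM in siPAX9, a log2 change of -0.36. In siNT, CDKN1C stood at 0.155 of the CDKN1B level and in siPAX9 at 0.666, so that p57 mRNA came nearer to p27 mRNA. CDKN1C lies on chromosome 11 from 2904448 to 2906995 on the minus strand and CDKN1B on chromosome 12 from 12870204 to 12875316 on the plus strand (hg19). Of the gene that GENCODE draws for CDKN1B, 13.8% lies inside this locus, which holds the start of the canonical transcript.

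Of the 8 members with a promoter in the RefSeq table, CDKN1B is the one whose promoter holds the PAX9 core on either strand, and CDKN1C and CDK2 were not searched. The window (RefSeq, GRCh38.p14, chr12:12717118-12717367, plus strand) is printed with this core, GCGTGAC read on the opposite strand, and 1 GC box in capitals.
CDKN1B promoter: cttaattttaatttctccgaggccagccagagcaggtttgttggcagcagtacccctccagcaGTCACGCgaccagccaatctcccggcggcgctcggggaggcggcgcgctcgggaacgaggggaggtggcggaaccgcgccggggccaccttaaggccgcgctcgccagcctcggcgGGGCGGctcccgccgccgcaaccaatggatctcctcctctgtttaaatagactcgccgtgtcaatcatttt
The core lies at position -187 from the start of the gene. CDKN1B and CDK2 had the log2 changes nearest to 0 of the set, and 2.20% of all promoters hold the core. Whether this core has a part in the CDKN1B level was not tested.

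Of the INK4 family, CDKN2C and CDKN2D had values above 0, and these crossed. CDKN2C, encoding p18, was at 4.87 FPKM in siNT and 2.04 FPKM in siPAX9, 2.39-fold lower, a log2 change of -1.26, and 572 genes (4.24%) had a lower log2 change. CDKN2D, encoding p19, was at 1.06 FPKM in siNT and 2.71 FPKM in siPAX9, 2.57-fold higher, a log2 change of 1.36, and 631 genes (4.68%) had a higher one. CDKN2C was the higher of this pair in siNT and the lower in siPAX9, and their sum was 5.93 FPKM in siNT and 4.75 FPKM in siPAX9. Both are low. Of the 3738 genes with a mean of both groups below 5 FPKM, 15.9% were at least 2-fold higher and 10.7% at least 2-fold lower, so changes of this size are common at this level. Adding 1 to each FPKM brought the log2 changes to -0.95 for CDKN2C and 0.85 for CDKN2D, short of 2-fold. CDKN2C lies on chromosome 1 from 51434367 to 51440309 (plus strand) and CDKN2D on chromosome 19 from 10677138 to 10679655 (minus strand). Of the gene that GENCODE draws for CDKN2C, 42.8% lies inside this locus, the canonical start included.

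CDKN2A and CDKN2B, next to each other on chromosome 9, were at 0 FPKM in siNT and 0 FPKM in siPAX9. Their loci run from 21967138 to 21994490 and from 21994790 to 22121093 (hg19), both genes on the minus strand. Of all symbols in the table, 23.9% were at 0 in both groups, while none of 20 genes that every cell uses was at 0 and the lowest of those was at 7.75 FPKM. MCF10A is known to have lost DNA at this locus. DNA was not analysed here, so the listing says only that no RNA was assigned to either gene.

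Of the 36 named genes within 2 Mb of CDKN2A, 15 were at 0 in both groups, among them CDKN2A and CDKN2B with their antisense RNAs, and the others were interferon alpha genes and microRNAs. From MTAP, the methylthioadenosine phosphorylase gene that adjoins CDKN2A, to the end of the CDKN2B locus there were 5 named genes, of which 4 were at 0 in both groups, CDKN2A, CDKN2B and their antisense RNAs CDKN2A-AS1 and CDKN2B-AS1. MTAP, an enzyme gene expressed in most tissues, was at 0 FPKM in siNT and 0.00411 FPKM in siPAX9. On one side, KLHL9, an adaptor of a ubiquitin ligase, was at 4.79 FPKM in siNT and 4.80 FPKM in siPAX9, and FOCAD, which encodes focadhesin, was at 4.53 and 3.90 FPKM. MIR31HG was at 1.52 and 1.75 FPKM and IFNE, an epithelial interferon, at 1.13 and 1.36 FPKM. On the far side, DMRTA1 was at 0.393 FPKM in siNT and 0.385 FPKM in siPAX9, and ELAVL2 at 3.22 and 1.95 FPKM. Of the genes listed around this stretch, 5 reached 1 FPKM and 0 differed by 2-fold.

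**Figure D2:**
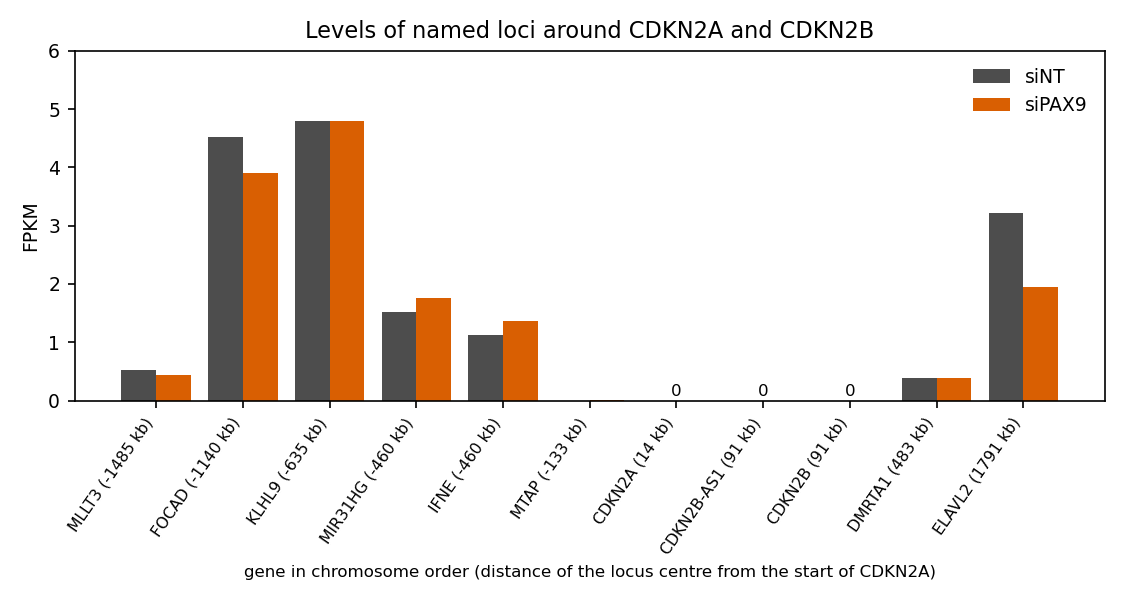
FPKM of CDKN2A, CDKN2B and the more abundant named genes around them on chromosome 9 (microRNAs and most genes at or near 0 are left out) in siNT (grey) and siPAX9 (orange), in chromosome order with the distance of each locus from CDKN2A in kilobases. CDKN2A, CDKN2B and CDKN2B-AS1 were at 0 and MTAP at 0.00411 FPKM or below, while the other genes drawn ranged from DMRTA1 at 0.393 FPKM to KLHL9 at 4.79 FPKM in siNT.

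All 3 kinases were lower in siPAX9, and 1 of them, CDK6, by at least 2-fold. CDK6 was at 14.0 FPKM in siNT and 6.33 FPKM in siPAX9, 2.21-fold lower, a log2 change of -1.14, and 704 genes (5.22%) had a lower log2 change. CDK4, the other partner of cyclin D, was at 51.1 FPKM in siNT and 25.9 FPKM in siPAX9, 1.97-fold lower, a log2 change of -0.98, just inside the 2-fold limit. CDK2, the partner of cyclins E and A, was at 14.3 FPKM in siNT and 11.4 FPKM in siPAX9, a log2 change of -0.33. CDK4 and CDK6 were lower by like factors, and CDK4 was in both groups the more abundant, at 3.66 times the CDK6 level in siNT and 4.10 times in siPAX9. CDK2 and CDK6 stood close together in control cells and apart after depletion.

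CDK4 lies on chromosome 12 from 58138647 to 58146230 and CDK6 on chromosome 7 from 92234235 to 92546501, both on the minus strand, and CDK2 on chromosome 12 from 56360553 to 56366573 on the plus strand (hg19). The CDK4 locus overlaps TSPAN31, a tetraspanin gene on the opposite strand, over 5356 bases, and CDK2 lies inside the annotated span of PMEL on the opposite strand. TSPAN31 has its own value, 4.05 FPKM in siNT and 6.96 FPKM in siPAX9, which is the reverse direction of CDK4. Of the gene drawn for CDK4 by GENCODE, 57.0% lies inside this locus, the canonical start included.

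The promoters of CDK4 and CDK6 are shown side by side because the values of this pair differed by like amounts. GC boxes and E-boxes (CACGTG, the site of MYC with its partner MAX) are in capitals, each promoter read on the minus strand of its chromosome (RefSeq, GRCh38.p14, chr12:57752311-57752560 for CDK4 and chr7:92836574-92836823 for the first of 2 CDK6 promoters).
CDK4 promoter: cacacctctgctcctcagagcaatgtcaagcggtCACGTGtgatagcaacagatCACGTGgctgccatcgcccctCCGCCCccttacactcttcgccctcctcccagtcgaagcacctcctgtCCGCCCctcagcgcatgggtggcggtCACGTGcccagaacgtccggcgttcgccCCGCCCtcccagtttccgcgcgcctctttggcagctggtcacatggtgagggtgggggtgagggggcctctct
CDK6 promoter: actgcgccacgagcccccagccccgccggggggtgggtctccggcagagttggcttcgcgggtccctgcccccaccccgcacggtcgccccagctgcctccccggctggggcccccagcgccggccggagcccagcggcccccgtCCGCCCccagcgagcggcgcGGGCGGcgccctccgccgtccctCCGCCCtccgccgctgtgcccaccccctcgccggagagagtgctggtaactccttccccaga
Each holds 3 GC boxes. CDK4 also holds 3 E-boxes, at positions -216, -196 and -101 from the start, and neither CDK6 promoter holds one. An E-box occurs in 6.34% of all promoters. MYC was at 394 FPKM in siNT and 248 FPKM in siPAX9, a log2 change of -0.67. Whether MYC or these E-boxes have a part in the CDK4 or CDK6 level was not tested.

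**Figure D3:**
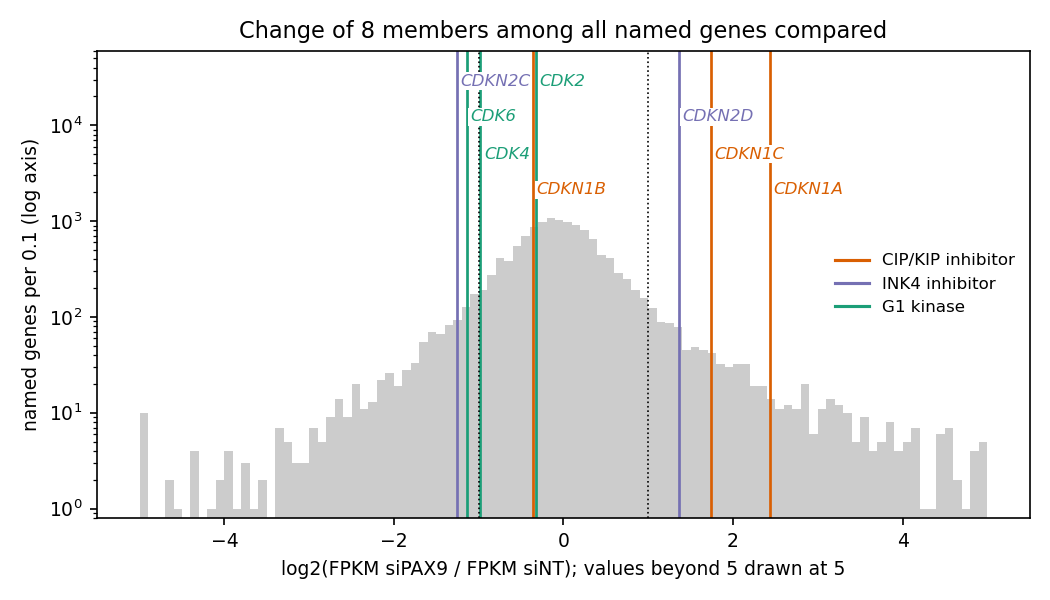
Number of named genes (log axis) by log2 change of siPAX9 over siNT in bins of 0.1, for the 13492 genes compared. Coloured lines mark the 8 members with a value and dotted lines a 2-fold change. CDKN1A at 2.44, CDKN1C at 1.74 and CDKN2D at 1.36 lie in the right tail, and CDKN2C at -1.26 and CDK6 at -1.14 lie past the dotted line on the left.

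The levels of the set were dominated by 1 gene, more so after depletion. Summed over the family, inhibitor mRNA was 110 FPKM in siNT and 418 FPKM in siPAX9, and kinase mRNA was 79.4 FPKM and 43.7 FPKM. The ratio of these sums was 1.39 in siNT and 9.57 in siPAX9. CDKN1A made up 62.5% of the inhibitor sum in siNT and 89.3% in siPAX9. Without CDKN1A, the inhibitor sum was 41.4 FPKM and 44.6 FPKM, and the ratio to the kinases was 0.522 and 1.02, with most of the difference in the kinase sum. CDKN1A stood at 4.82 times the CDK2 level in siNT and 32.7 times in siPAX9. These are ratios of mRNA levels, and protein was not analysed here.

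Ordered by level in siNT, the set ran CDKN1A, CDK4, CDKN1B, CDK2, CDK6, CDKN2C, CDKN1C and CDKN2D. In siPAX9 the first 3 places were the same, and CDKN1C stood at place 4 instead of 7, ahead of CDK2 and CDK6, while CDKN2C stood at the last measured place. CDK2 at 14.3 FPKM and CDK6 at 14.0 FPKM, and CDKN2C at 4.87 FPKM and CDKN1C at 4.76 FPKM, were neighbours within a few percent of each other in siNT, and without sample values their order cannot be told.

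For the measured member with the largest change, the genes nearest in both levels were sought. Candidates were the compared genes on loci with a single symbol, other members left out. The 3 named genes closest to CDKN1A in the plane of both log2 levels were SNORD144 (63.5 FPKM in siNT, 260 FPKM in siPAX9), MIR3074 (48.9 and 303 FPKM) and SNORD12C (92.5 and 273 FPKM), at log2 distances of 0.53, 0.58 and 0.62. All 3 are small RNAs that poly(A)+ libraries are not made to capture.

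The remaining genes of the G1 pathway were grouped by role. Of all genes compared, 7.26% were at least 2-fold higher and 6.89% at least 2-fold lower. Of the 7 cyclin partners, 0 were at least 2-fold higher and 2 were lower, the A-type cyclins of S phase, CCNA1 (12.1 FPKM in siNT, 2.49 FPKM in siPAX9, log2 change -2.28) and CCNA2 (18.6 and 6.12 FPKM, -1.60). None of the D-type and E-type cyclins differed by 2-fold. CCND1, a partner of CDK4 and CDK6, was at 28.1 FPKM in siNT and 51.1 FPKM in siPAX9, a log2 change of 0.86. CCND3 was the most abundant D-type cyclin in both groups, at 69.9 FPKM in siNT and 59.8 FPKM in siPAX9 (-0.22). CCND2 had a log2 change of 0.04. CCNE1 and CCNE2, partners of CDK2, had log2 changes of 0.26 and 0.32. The median of the cyclins was 0.04.

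Of 10 genes that switch CDKs on or off by phosphorylation, or fold them, 8 were lower in sign, and 0 were higher and 2 lower by at least 2-fold, the phosphatase CDC25C (5.14 FPKM in siNT, 0.955 FPKM in siPAX9, log2 change -2.43) and the inhibitory kinase PKMYT1 (5.57 and 2.57 FPKM, -1.12), both of which act on CDK1. CDC25A, which activates CDK2, had a log2 change of -0.32, and CDC37, the chaperone that delivers CDK4 to HSP90, one of 0.19. CDK7, the CDK-activating kinase, had a log2 change of -0.71, and HSP90AB1, the abundant chaperone, one of -0.51. The median was -0.24. Beside this list, 7.26% of all genes compared were at least 2-fold higher and 6.89% lower.

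Of 13 genes of the retinoblastoma and E2F families, 11 reached 1 FPKM, 0 were higher and 2 were lower by at least 2-fold, RBL1, encoding the pocket protein p107 (3.35 FPKM in siNT, 1.55 FPKM in siPAX9, log2 change -1.11), and E2F5 (7.27 and 3.49 FPKM, -1.06). E2F3 had the highest log2 change, 0.47, and the median was -0.42. Among 10 genes for turnover of the inhibitors and of cyclin E, 0 were higher and 2 were lower, DTL, part of the ligase that marks p21 for breakdown in S phase (8.94 and 3.06 FPKM, -1.55), and CKS1B, which helps SKP2 to bind p27 (41.7 and 16.1 FPKM, -1.37). SKP2 had a log2 change of -0.84, and FBXW7, which marks cyclin E, one of 0.92. Beside both lists, 7.26% of all genes compared were at least 2-fold higher and 6.89% lower.

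Genes that E2F factors switch on for DNA replication were lower throughout. All 17 in the list were lower in sign, 9 of them by at least 2-fold, where 6.89% of all genes compared were. With equal FPKM totals over named loci, 5 were, beside 4.20% of all genes. The median log2 change was -1.08, beside -0.07 for all genes compared. CDT1, which loads the replicative helicase, had the lowest log2 change, from 10.8 FPKM in siNT to 1.95 FPKM in siPAX9 (-2.46). The helicase subunit MCM2 was next, from 16.7 to 5.67 FPKM (-1.56). The smallest differences were in RRM2 (-0.29), a ribonucleotide reductase subunit, and POLA1 (-0.52), the catalytic subunit of DNA polymerase alpha.

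**Figure D4:**
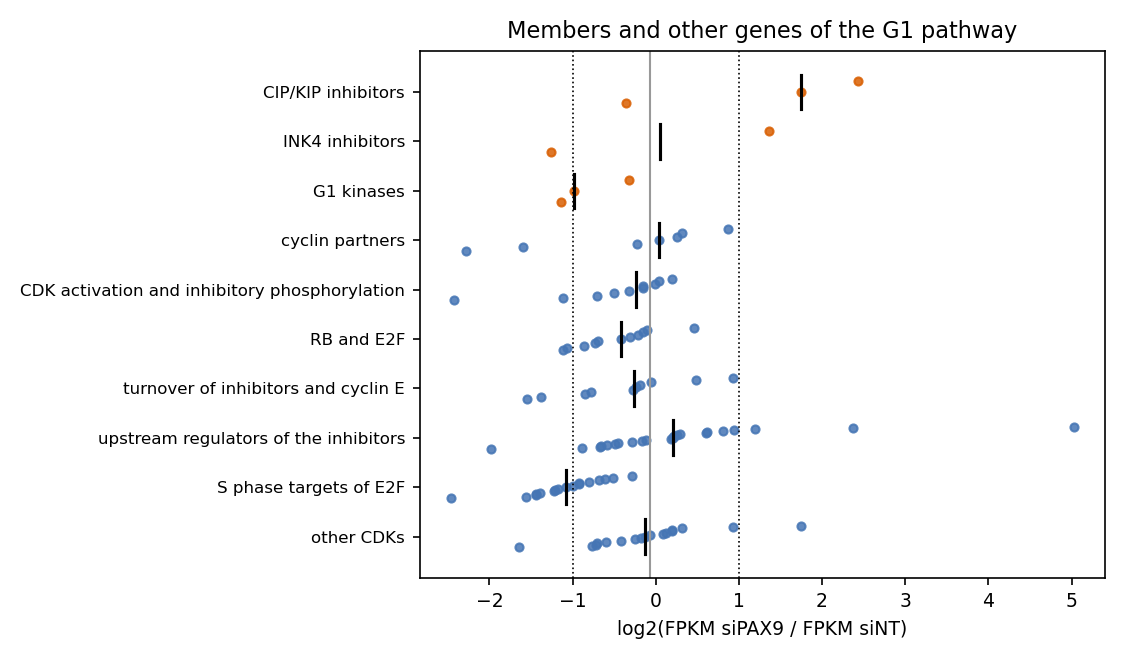
Log2 change of siPAX9 over siNT for the members (orange) and for other genes of the pathway (blue) with at least 1 FPKM in the higher group, 1 point per gene. Black ticks mark list medians, the grey line the median of all genes compared, -0.07, and dotted lines a 2-fold change. The S phase targets of E2F centre at -1.08 and the cyclin partners at 0.04.

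Of 24 genes that are known to regulate the inhibitors, 23 were compared, with a median of 0.21. By at least 2-fold, 3 were higher and 1 was lower, where 7.26% and 6.89% of all genes compared were. The 3 were the inhibitors of DNA binding ID1, ID2 and ID3, which are known to hold back transcription of CDK inhibitors and are targets of BMP signalling. ID2 was at 0.697 FPKM in siNT and 22.7 FPKM in siPAX9, a log2 change of 5.02, and ID3 at 16.1 and 83.9 FPKM, 2.38. ID2 reached the 1 FPKM minimum in siPAX9 alone, and the precision of its low siNT value is unknown. TP73, a transcription factor gene, was at 4.24 and 1.07 FPKM (-1.99), and EZH2, the Polycomb methyltransferase that silences CDKN2A, had a log2 change of -0.88.

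Of 18 other CDKs, 17 were compared. By at least 2-fold, 1 was higher and 1 was lower, where 7.26% and 6.89% of all genes compared were. CDK11A and CDK11B share 1 locus and 1 value and are both counted. CDK9, the elongation kinase, was at 16.6 FPKM in siNT and 55.5 FPKM in siPAX9 (log2 change 1.74), on a locus that the table shares with MIR2861 and MIR3960. CDK1, the kinase of mitosis, was at 25.4 and 8.17 FPKM (-1.64), a lower log2 change than in CDK2, CDK4 or CDK6. CDK14 and CDK17 had log2 changes of 0.92 and -0.77, and the median was -0.13. Of 9 genes whose names resemble those of the set without belonging to it, 1 was lower, CDKN3, a phosphatase of CDKs (12.5 and 3.44 FPKM, -1.86).

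Genes beside CDKN1A did not share its difference. Within 100 kb of CDKN1A, PANDAR, a noncoding RNA that starts next to it, was at 20.5 FPKM in siNT and 18.8 FPKM in siPAX9 (log2 change -0.13), and SRSF3, a splicing factor, at 75.5 and 41.0 FPKM (-0.88). All 3 neighbours of CDKN1B were lower in sign, as CDKN1B was. Of these, 2 were lower by at least 2-fold, APOLD1 (2.40 FPKM in siNT, 0.629 FPKM in siPAX9, -1.93) and CREBL2 (-1.03). FAF1, the neighbour of CDKN2C, was also lower (-0.50). Of all genes compared, 7.26% were at least 2-fold higher and 6.89% lower, with a median of -0.07. Whether neighbours changed together was not tested. Of the 6 neighbours of CDK2, 0 passed 2-fold. Around CDKN1C, 1 of 4 neighbours was lower by at least 2-fold and 0 were higher, with PHLDA2, another imprinted gene of that cluster, at -0.32. Of the 7 neighbours of CDKN2D, 1 was at least 2-fold higher, the choline transporter gene SLC44A2 (0.199 FPKM in siNT, 10.5 FPKM in siPAX9, 5.72). The siNT value of SLC44A2 lies below the 1 FPKM minimum. The 4 neighbours of CDK6 had log2 changes of -0.07 to 0.16, and FAM133B and FAM133DP among them carry the same values. Of the 10 neighbours of CDK4, 2 were lower by at least 2-fold, among them CYP27B1 (-1.69), the vitamin D hydroxylase. The 100 kb window and the neighbours named were chosen after values had been seen.

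The cells carried the markers of their label. All 6 basal epithelial genes were measured, led by the keratins KRT17 (1718 FPKM in siNT, 2088 FPKM in siPAX9) and KRT5 (1558 and 1807 FPKM), and of the 6, 4 were higher and 2 lower in sign, with log2 changes of -0.49 to 0.38. Of the epithelial markers, CDH1 was at 45.3 and 124 FPKM and EPCAM at 34.3 and 16.7 FPKM, while KRT18 and KRT8 had log2 changes of -0.83 and 0.18. Of the immune markers, CD3E was at 0 in both groups, PTPRC at 0.0922 FPKM or below and CD68 at 3.38 and 3.77 FPKM. The 3 endothelial genes summed to 2.58 and 0.516 FPKM, nearly all of it PECAM1. The 5 fibroblast genes summed to 6.38 FPKM in siNT and 42.1 FPKM in siPAX9, through COL1A1 and DCN, which were both higher by at least 2-fold, while COL3A1 was at 0 in both groups and COL1A2 at 0.00337 FPKM or below. The part of these levels in the values of the members was not tested.

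Whether a member passed 2-fold depended on the scale for the genes near the limit. The FPKM of all loci add up to less in siPAX9, and setting the totals equal shifts every log2 change up by 0.19, or by 0.27 where only named loci are summed. CDKN1A then ranged up to 2.71 and CDKN1C up to 2.02. CDK6 came to -0.87 and CDKN2C to -0.99 with equal totals over named loci, both inside 2-fold, and CDK4 to -0.71. CDKN1B came to -0.088 and CDK2 to -0.055, both close to 0. Among all genes past 2-fold, 51.3% were higher and 48.7% lower as deposited, 67.5% and 32.5% with equal totals over all loci, and 72.6% and 27.4% over named loci. No member could turn direction under these scales, because the shifts are upward and smaller than the smallest fall of a member, -0.33 in CDK2. With equal totals over named loci, the S phase targets at least 2-fold lower numbered 5 instead of 9. CCND1, FBXW7 and CDK14 then passed 2-fold (11.1% of all genes were higher on this scale and 4.20% lower), the regulators of the inhibitors had 5 higher instead of 3, PKMYT1 came inside 2-fold, and no RB or E2F gene passed.

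**Figure D5:**
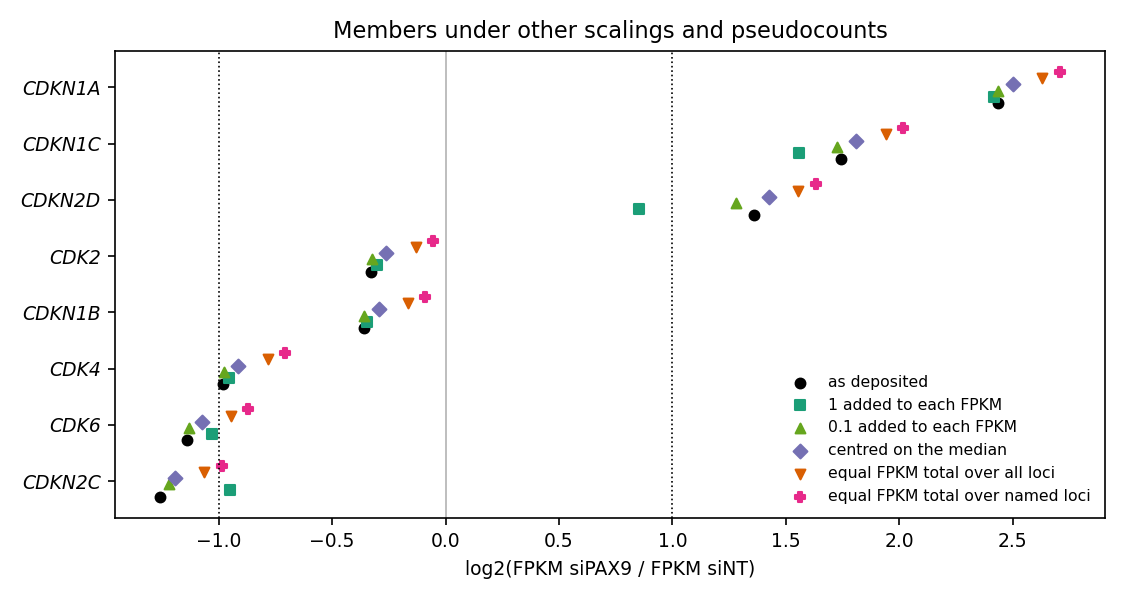
Log2 change of siPAX9 over siNT for the 8 members with a value, as deposited (black) and under 5 other scalings or pseudocounts. Dotted lines mark a 2-fold change. CDKN1A stayed between 2.42 and 2.71 and CDKN1C between 1.56 and 2.02, while CDKN2D, CDK6 and CDKN2C each crossed a dotted line.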

How the data were processed

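Poly(A)+ RNA from 6 samples of MCF10A cells, 3 siNT and 3 siPAX9, was sequenced as single-end reads. Per the labels and methods, the authors used Partek Flow, with Bowtie 2 for alignment (hg19) and Cufflinks for levels. The deposited table holds 1 FPKM per group and locus (41656 loci, 27678 of them with a symbol). The table itself gives neither its scaling between groups nor the depth behind each value. The table also holds the authors' own log2 fold changes, p-values and q-values, which were not used.

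A symbol on several rows took the row with the highest mean of both groups. Genes listed at 0 in a group (130) or below 1 FPKM in the higher group were not compared. No pseudocount was added in the main values. The calculation was tested on simulated data. Some genes, 1 gene list and 1 sequence search are not reported here. Starts were written 1-based, and 20749 of 20794 single-symbol loci (99.8%) overlapped their gene in GENCODE on GRCh37. Of 10 members, 8 matched a RefSeq promoter (CDKN1C and CDK2 did not). Named genes were all members, up to 2 genes in each direction from each list (all of a list of up to 10), the 3 nearest to CDKN1A, and PAX9. Members and lists were chosen with earlier results of these data known. MYC, ID1, CDKN2A-AS1 and the neighbours within 100 kb are outside the rule and were named after their values were seen. Python 3.11.15, numpy 2.4.6, pandas 2.3.3 and matplotlib 3.10.9 were used.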

Additional observations from a re-analysis of the deposited data

How the results depend on the processing

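With 1 FPKM per group, leaving out a replicate could not be done. No paired analysis was possible because the table has no values per sample, and a count model could not be fitted for the same reason. The table gives no counts behind a value, so the precision of the low genes CDKN2C and CDKN2D is unknown. Filters and added constants cannot turn the direction of a member. The 3 changes of scale raise every log2 change alike, by 0.27 at most, so a member that was higher cannot turn. The lower member nearest to 0, CDK2 at -0.33, lay beyond that shift, so no member could turn and the direction was not tested by them. The scalings by FPKM total were chosen after seeing the data.

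The 2 members at least 2-fold lower came to 1 (CDK6) with 1 added to each FPKM, 1 (CDK6) with a minimum of 5 FPKM, 1 (CDKN2C) with equal totals over all loci, 0 with equal totals over named loci and 0 at a 4-fold limit. Of all genes, 6.89% were lower as deposited, and under these alternatives 4.89%, 6.10%, 4.71%, 4.20% and 1.37%. The 3 members at least 2-fold higher came to 2 with 1 added and 2 with a minimum of 5 FPKM, in both without CDKN2D, and to 1 (CDKN1A) at 4-fold. Of all genes, 7.26% were higher as deposited, and under these alternatives 5.00%, 4.85% and 2.67%. The median log2 change of the members, -0.34, was -0.32 with 1 added, -0.34 with 0.1 added, -0.28 after centring on the median of all genes, -0.15 with equal totals over all loci and -0.072 with equal totals over named loci. Without a minimum FPKM, 2537 genes were higher and 1504 lower, against 980 and 930.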
